A study of Mus musculus with 20 samples.

Results

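Metabotropic glutamate receptors were represented on the arrays by 6 genes, Grm5, Grm2, Grm3, Grm4, Grm7 and Grm8, each with 1 probe set, out of 19933 genes that had a probe set annotated with a single symbol. They were chosen by symbol alone, without use of any measured value, and other genes of the family were not analysed here. Amygdala RNA, left and right side together, came from 20 male mice of the C57BL/6 background (C57BL/6J in the study's methods), 1 mouse per array, aged 7 months and bred from heterozygous parents. The 5 mice per group formed 4 groups, namely WT con, WT stress, KO con, and finally KO stress, where KO mice lack a functional serotonin transporter (5-HTT, encoded by Slc6a4) in every cell, con mice stayed in their home cage for 1 min, and stress mice spent 1 min in water of 22 °C. All mice of all groups had been housed singly and tested on an elevated plus-maze before sampling. The design asks which transcripts differ minutes after an acute stressor, which differ by genotype, and whether the response to stress depends on genotype.

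Metabotropic glutamate receptors are G protein-coupled receptors for glutamate and adjust transmission more slowly than the ion channels that glutamate opens. Group I, here mGlu5 (Grm5), couples through Gq to phospholipase C and calcium release and sits mainly behind the synapse. Group II, mGlu2 and mGlu3 (Grm2, Grm3), and group III, mGlu4, mGlu7 and mGlu8 (Grm4, Grm7, Grm8), couple through Gi/o, lower cyclic AMP and, at axon terminals, reduce transmitter release. In the amygdala these receptors are known for roles in fear learning, extinction and anxiety.

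In the annotation of build GRCm38.p6 the genes lie on chromosome 7 from 87583981 to 88135063 (Grm5), chromosome 9 from 106644534 to 106656109 (Grm2), chromosome 5 from 9485236 to 9725352 (Grm3), chromosome 17 from 27422387 to 27513826 (Grm4), chromosome 6 from 110645349 to 111567230 (Grm7) and chromosome 6 from 27275121 to 28135146 (Grm8). Their annotated spans run from 11576 bases for Grm2 to 921882 bases for Grm7. RefSeq promoter windows matched 4 of the 6, namely Grm2, Grm3, Grm7 and Grm8, and where a gene had several the window nearest its annotated 5′ end was taken. For Grm7 that window (chr6:110645362-110645511, plus strand) lies inside the annotated gene, whose 5′ end is at 110645349. The windows of Grm2, Grm3 and Grm8 end at the annotated 5′ end. The 150 bases before the annotated start are shown for Grm2 (chr9:106656110-106656259, minus strand) and Grm8 (chr6:28135147-28135296, minus strand), the genes whose signal varied most between mice, 5′ to 3′ along the gene with every GC box, GGGCGG, in capitals.
Grm2: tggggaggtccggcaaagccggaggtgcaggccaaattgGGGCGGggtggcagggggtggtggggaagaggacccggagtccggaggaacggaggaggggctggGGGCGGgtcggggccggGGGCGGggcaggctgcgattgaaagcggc
Grm8: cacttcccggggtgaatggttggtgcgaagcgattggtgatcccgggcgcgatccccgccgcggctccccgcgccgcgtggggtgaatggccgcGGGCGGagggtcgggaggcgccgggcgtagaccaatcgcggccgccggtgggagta
The Grm2 window held 3 GC boxes, and the windows of Grm3, Grm7 and Grm8 held 1 each on either strand, where 28.6% of 32851 windows of the same length held at least 1. The windows were 74.0% G and C for Grm2 and for Grm8, 66.0% for Grm3 and 68.0% for Grm7, against a median of 54.0% over all windows. The Grm8 window held 24 CG steps and that of Grm2 12, with 6 each in the windows of Grm3 and Grm7 and a median of 4 over all. None of the 4 windows held TGACG, the core of the cAMP response element (13.3% of all windows did), TATAAA, the TATA box (7.57%), or GCGGGGGCG, a site of the Egr family (2.09%), on either strand. These matches of letters are descriptions of the windows and no evidence of binding.

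All values below are normalized log2 signals as deposited, and differences are log2 differences between group means. A gene met the criterion of the study's methods where it differed by a fold over 1.5 (0.58 on the log2 scale) with an unadjusted p under 0.05, taken here from limma fitted over all 28767 probe sets. No receptor gene met it in any comparison. It was 0 of 6 in WT stress vs. con (0.24% of all probe sets met it), KO stress vs. con (0.139%), con KO vs. WT (0.0487%) and stress KO vs. WT (0.768%), in the interaction of genotype and stress (0.591%), and in averaged stress (0.0556%, over genotypes) and averaged genotype (0.139%, over con and stress). At an unadjusted p under 0.05 without a fold, 1 of 6 genes, Grm7, was called in stress KO vs. WT (9.28% of all probe sets), and 0 of 6 in WT stress vs. con (3.54%), KO stress vs. con (1.13%), con KO vs. WT (3.57%), the interaction (2.52%), averaged stress (1.67%) and averaged genotype (12.0%). After Benjamini-Hochberg adjustment limma called 0 of 6 everywhere, where it called 0.00348% of all probe sets in stress KO vs. WT and in averaged genotype and 0% in the other comparisons. Arrays of the groups compared overlapped for every receptor gene. In bulk tissue fewer cells of a type and less RNA per cell cannot be told apart.

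Facts of the whole series bear on these values. The arrays that correlated least with the rest were replicate 1 of WT stress (median 0.961) and replicate 1 of WT con (median 0.978), called below the arrays that stood apart. The label follows rank alone. WT stress replicates 4 (0.98) and 3 (0.981) lay close to WT con replicate 1. Slc6a4 had a higher signal in KO than in WT, by 1.54 in con and by 1.88 in stress mice, with no overlap between genotypes; no source used here places its probes relative to the disrupted part, so the higher signal does not test the deletion. Of 12 marker genes each for pallial excitatory and for striatal and central amygdala neurons, the classes that make up most amygdala nuclei, all had mean signals of at least 5 (lowest 5.73 and 6.77). Of all probe sets 14.6% had a mean below 5, so reaching this level does not single out these neurons. Markers of neighbouring tissue were measured too, with means from 6.43 to 9.14 for the 9 thalamic and from 5.66 to 10.22 for the 13 choroid plexus genes.

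**Figure D1:**
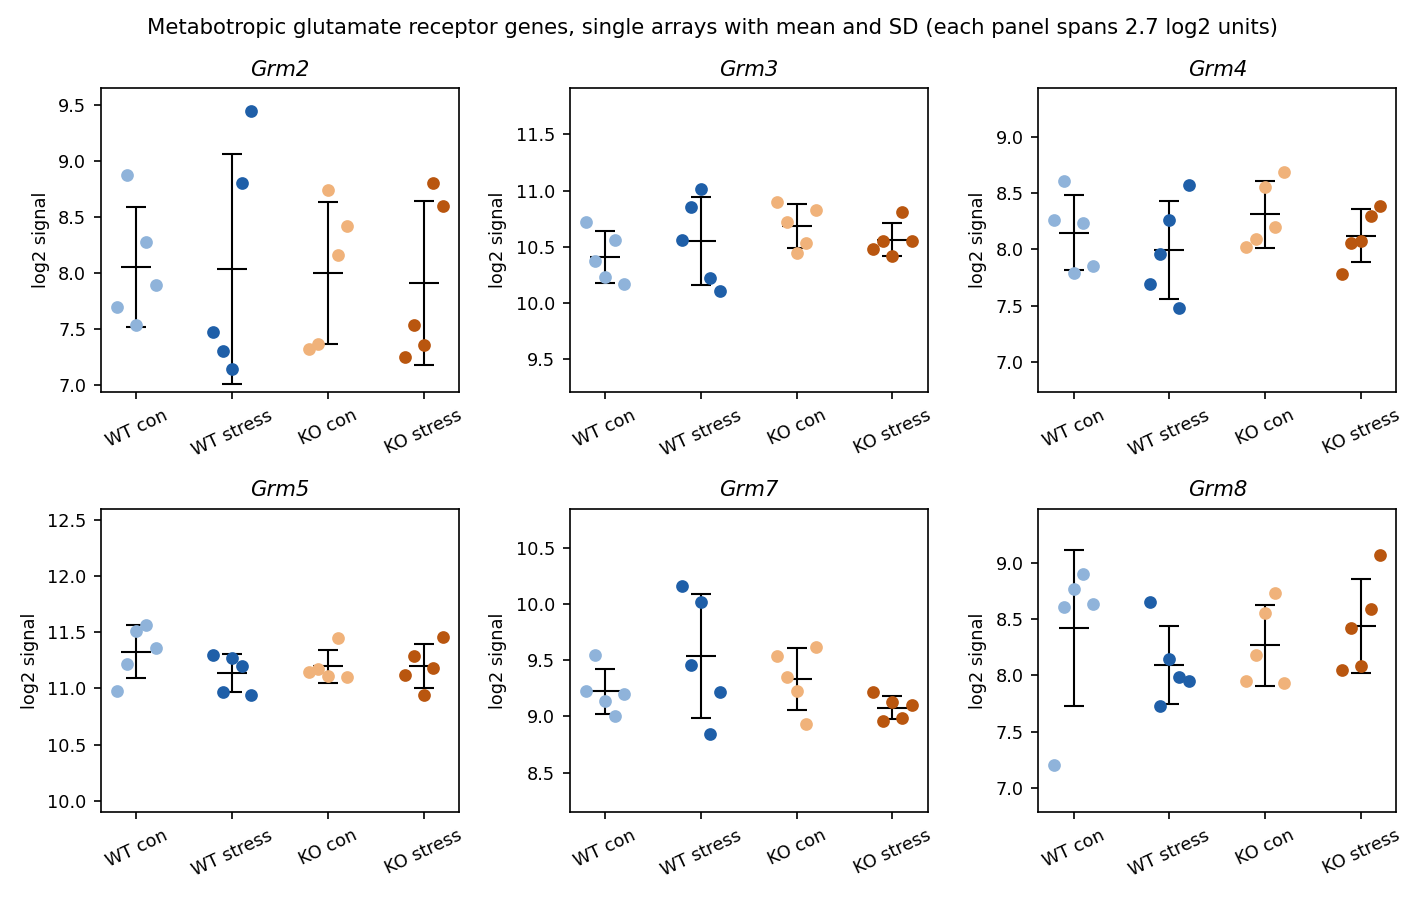
Normalized log2 signal (y axis) of the 6 receptor genes in the 4 groups (x axis), with 1 point per array and the mean and SD of 5 arrays in black; every panel spans the same 2.7 log2 units. Grm2 spread widest in every group but WT con, where Grm8 did because of a single low array at 7.20, and Grm5 spread least over the 4 groups together.

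Group I was represented by Grm5, the postsynaptic receptor that Homer proteins link to calcium stores. WT con arrays had 10.98, 11.22, 11.51, 11.56 and 11.36, and WT stress arrays 11.30, 10.97, 11.27, 11.20 and 10.94. KO con arrays had 11.15, 11.17, 11.11, 11.45 and 11.10, and KO stress arrays 11.12, 11.29, 10.94, 11.18 and 11.46. The groups lay on top of each other, with 3 of the WT con arrays above every WT stress array. The difference was -0.19 (SE 0.12, 95% interval -0.43 to 0.05) in WT stress vs. con, with a limma p of 0.114 and an exact permutation p of 0.175. With single arrays left out it ran from -0.28 (limma p of 0.0211, without WT con replicate 1) to -0.13. The weaker end, without WT con replicate 4, had a limma p of 0.278. It was -0.32 (limma p of 0.0129) without both arrays that stood apart and -0.33 (limma p of 0.0142) with array weights. All of these were short of 1.5-fold. KO stress vs. con gave 0.00 (SE 0.12, interval -0.24 to 0.25). The genotypes differed by -0.13 (interval -0.37 to 0.11) in con and by 0.06 (interval -0.18 to 0.30) in stress mice. None of these 4 intervals over all arrays reached the 1.5-fold bound of 0.58, and the interval of the interaction, 0.19 (-0.15 to 0.54), did not either.

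Of group II, Grm2 encodes a presynaptic autoreceptor that damps glutamate release. WT con arrays had 7.70, 8.87, 7.54, 8.28 and 7.89, and WT stress arrays 7.48, 7.31, 7.15, 8.80 and 9.44. KO con arrays had 7.32, 7.37, 8.74, 8.16 and 8.42, and KO stress arrays 7.25, 7.54, 7.36, 8.80 and 8.60. The lowest array of a group lay between 7.15 and 7.54 and the highest between 8.74 and 9.44, and in both stress groups 3 low arrays were separated from 2 high ones by more than 1 log2 unit. Differences between groups were small beside this spread, from -0.13 (SE 0.45, interval -1.07 to 0.82) in stress KO vs. WT to -0.02 (interval -0.96 to 0.92) in WT stress vs. con. In these comparisons and the interaction every interval extended past 1.5-fold in both directions, so a change of that size was not detectable for Grm2 in these arrays. The SD within groups, 0.75, was larger than that of 99.4% of all probe sets, whose median was 0.18.

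Grm3, the group II receptor found on neurons and on astrocytes, varied less. WT con arrays had 10.72, 10.37, 10.23, 10.56 and 10.17, and KO con arrays 10.90, 10.72, 10.44, 10.53 and 10.83. WT stress arrays had 10.56, 10.85, 11.01, 10.22 and 10.11, and KO stress arrays 10.48, 10.55, 10.42, 10.81 and 10.55. Among con mice 2 KO arrays clearly exceeded every WT array, another equalled the highest WT array at 10.72, and the other 2 lay within the WT range. The difference in con KO vs. WT was 0.27 (SE 0.16, interval -0.05 to 0.60), with a limma p of 0.0956 and an exact permutation p of 0.0794. With single arrays left out it ran from 0.21 (limma p of 0.21, without WT con replicate 5) to 0.35. The upper end, without WT con replicate 1, had a limma p of 0.0424. Array weights gave 0.31 (limma p of 0.0368) and the pallial score as a covariate 0.32 (limma p of 0.0446). Quantile normalization gave 0.20 (limma p of 0.224). The striatal and central amygdala score as a covariate gave 0.14 (limma p of 0.186). All of these were short of 1.5-fold. In stress mice the genotypes differed by 0.01 (interval -0.31 to 0.34), and the interaction was -0.26 (SE 0.22, interval -0.72 to 0.20, permutation p = 0.24), so a dependence of the genotype difference on stress was not shown. Stress vs. con gave 0.14 in WT (exact permutation p = 0.484) and -0.12 in KO mice (exact permutation p = 0.325).

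Of group III, Grm4 encodes a presynaptic receptor. WT con arrays had 8.26, 8.61, 7.79, 8.24 and 7.85, and WT stress arrays 7.69, 7.96, 8.26, 7.48 and 8.57. KO con arrays had 8.02, 8.09, 8.56, 8.20 and 8.69, and KO stress arrays 7.78, 8.06, 8.08, 8.30 and 8.39. The lowest array was a WT stress and the highest a KO con array, and all groups overlapped. Stress vs. con was -0.16 (SE 0.20, interval -0.58 to 0.26) in WT and -0.19 (interval -0.61 to 0.23) in KO mice, and averaged over genotypes -0.17 (SE 0.14, interval -0.47 to 0.12), with a limma p of 0.235. KO mice differed from WT mice by 0.16 (interval -0.26 to 0.58) in con and 0.13 (interval -0.29 to 0.55) in stress mice. The interaction was -0.03 (interval -0.63 to 0.57).

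Grm7, which encodes a receptor of low glutamate affinity in the active zone of axon terminals, was the receptor gene with a limma p under 0.05 in a comparison. WT con arrays had 9.23, 9.55, 9.14, 9.00 and 9.20, and WT stress arrays 10.16, 9.46, 10.02, 8.84 and 9.22. KO con arrays had 9.54, 9.35, 9.23, 8.93 and 9.62, and KO stress arrays 9.22, 8.96, 9.13, 8.99 and 9.10. WT stress held both the 2 highest arrays of all 20 (replicates 1 and 3) and the lowest (replicate 4), while KO stress stayed between 8.96 and 9.22. In stress KO vs. WT the signal was lower in KO by 0.46 on the log2 scale (difference -0.46, SE 0.20, interval -0.88 to -0.05), with a limma p of 0.0316, an adjusted p of 0.53 and an exact permutation p of 0.143. This is a 1.38-fold difference, short of the criterion, and it fails the correction over all probe sets. The interaction was -0.57 (SE 0.28, interval -1.16 to 0.02, limma p = 0.0558, permutation p = 0.0544), with stress vs. con at 0.32 (SE 0.20, exact permutation p = 0.286) in WT and -0.26 (SE 0.20, exact permutation p = 0.103) in KO mice. The KO value was -0.06 (limma p of 0.794) with the choroid plexus score as a covariate. In this comparison 13 of 13 choroid plexus markers were higher after stress, with a median difference of 1.03. Of them 8 were past the criterion, which 0.139% of all probe sets met. With group means subtracted, Grm7 and this score had r = -0.42 (permutation p = 0.293) and rho = -0.12. Without WT stress replicate 4 and KO stress replicate 2, r was 0.24. The score ran from -0.93 to -0.34 in KO con and from -0.51 to 1.89 in KO stress. Its part in the KO value was not tested. The WT value was 0.16 (limma p of 0.397) without WT stress replicate 1 and 0.49 (limma p of 0.0115) without WT stress replicate 4. In con mice KO and WT differed by 0.11 (interval -0.30 to 0.53).

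The Grm7 difference in stress mice depended on single arrays. Without WT stress replicate 1, which also stood apart, it was -0.31 (limma p of 0.116), and without WT stress replicate 3 it was -0.34 (limma p of 0.103), whereas without WT stress replicate 4 it was -0.64 (limma p of 0.0019) and met the criterion. Several marker classes differed in the same comparison. All 11 of 11 astrocyte markers had a higher mean in KO stress than in WT stress mice (median 0.16). Of them 2 had a limma p under 0.05, as did 9.28% of all probe sets. In con mice 9 of 11 were higher in KO. In stress mice GABAergic markers were higher in KO for 9 of 12 (median 0.39) and meningeal ones for 11 of 11 (median 0.59). Of the 12 GABAergic markers 3 were past the criterion, which 0.768% of all probe sets met. Pallial excitatory markers were lower for 10 of 12 (median -0.3). The astrocyte score (the mean of a list's genes after centring each over the 20 arrays) ran from 0.01 to 0.28 in KO stress. In WT stress it ran from -0.75 to 0.20. The lowest astrocyte score, -0.75, was that of WT stress replicate 1, the array with the highest Grm7 signal, 10.16. That array also had the lowest oligodendrocyte (-0.62), microglia (-0.33), GABAergic (-0.66) and thalamic (-0.78) scores of all 20 arrays. With the astrocyte score as a covariate, added after its correlation was seen, the difference was -0.23 (limma p of 0.157), and with the choroid plexus score -0.37 (limma p of 0.0653), while with the striatal score it was -0.51 (limma p of 0.00326). The methods' t-test gave a p of 0.105 for the same difference, limma on the 2 groups alone a p of 0.0728, and array weights -0.34 (limma p of 0.0538). Choroid plexus scores ran from -0.51 to 1.89 in KO stress and from -1.0 to 2.68 in WT stress, with 12 of 13 markers higher in KO stress and 13 of 13 higher in the interaction (median 0.72). The Grm7 interaction was -0.42 with the choroid plexus score (limma p of 0.141), -0.43 with the astrocyte score (limma p of 0.0574) and -0.42 without both arrays that stood apart (limma p of 0.14). What any cell type contributes to the Grm7 values was not tested.

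Grm8 encodes the group III receptor of high glutamate affinity at axon terminals. WT con arrays had 7.20, 8.61, 8.77, 8.90 and 8.64, and WT stress arrays 8.65, 7.73, 8.15, 7.99 and 7.95. KO con arrays had 7.95, 8.18, 8.56, 8.73 and 7.93, and KO stress arrays 8.05, 8.42, 8.08, 8.59 and 9.07. WT con replicate 1 was the lowest of all 20 arrays, and the other 4 WT con arrays lay above 4 of the 5 WT stress arrays. Over all arrays the difference in WT stress vs. con was -0.33 (SE 0.28, interval -0.93 to 0.27), with a limma p of 0.26 and an exact permutation p of 0.381. KO stress vs. con gave 0.17 (interval -0.42 to 0.77) and the interaction 0.50 (SE 0.40, interval -0.34 to 1.35, permutation p = 0.229). Without WT con replicate 1 the WT difference was -0.64 (limma p of 0.0092) and the interaction 0.81 (limma p of 0.0146), both past the criterion. Without both arrays that stood apart they were -0.78 (limma p of 0.00198) and 0.95 (limma p of 0.00393), and with array weights, which count deviating arrays less, -0.71 (limma p of 0.0136) and 0.80 (limma p of 0.0243). A lower Grm8 signal in stressed WT mice thus rests on leaving out WT con replicate 1 or on weighting the arrays. The genotypes differed by -0.16 (interval -0.75 to 0.44) in con and 0.35 (interval -0.25 to 0.95) in stress mice. With single arrays left out, the con difference ran from -0.46 (limma p of 0.0483, without WT con replicate 1) to -0.04. The weaker end, without WT con replicate 4, had a limma p of 0.907. With the striatal and central amygdala score as a covariate the con difference was 0.00 (limma p of 0.989). The highest such score, 0.73, was that of WT con replicate 1. The stress difference ran from 0.19 to 0.49 with single arrays left out. Without both arrays that stood apart the con difference was -0.46 (limma p of 0.034) and the stress difference 0.49 (limma p of 0.0264). All of these were short of 1.5-fold.

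**Figure D2:**
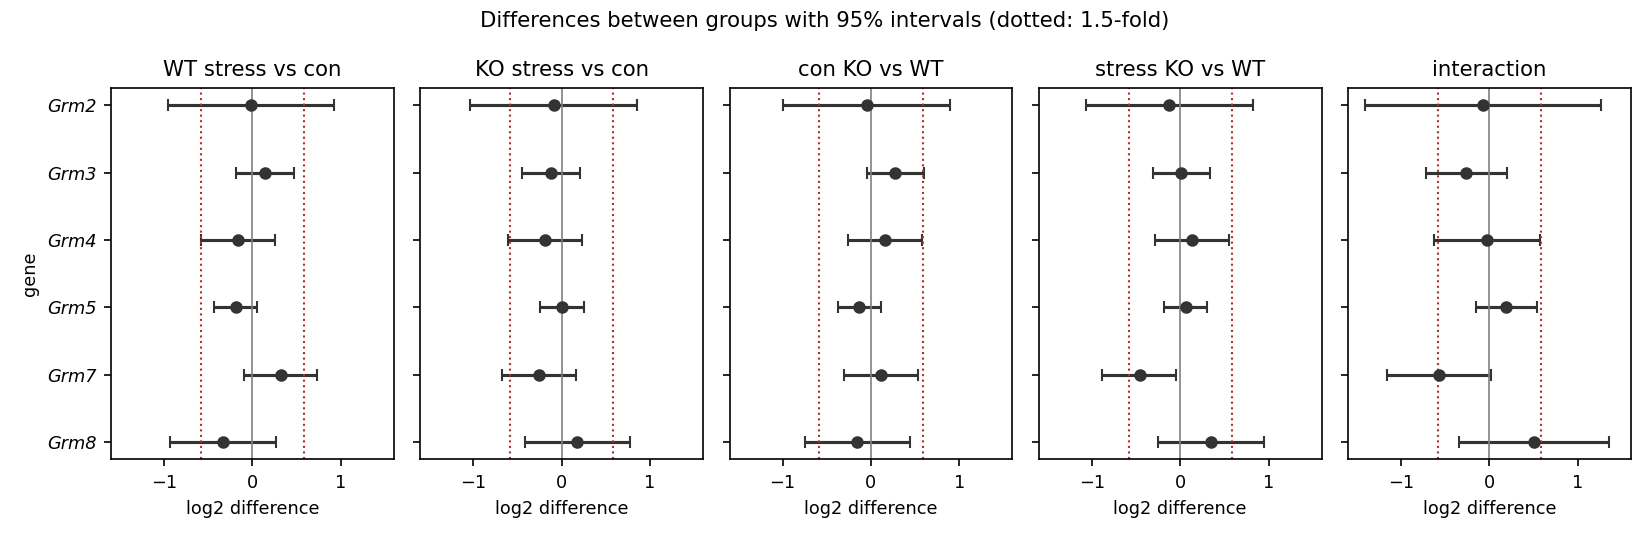
Log2 differences (x axis) of the 6 receptor genes (y axis) in the 4 comparisons and the interaction, as points with 95% intervals from limma over all 20 arrays; dotted lines mark a 1.5-fold difference. The interval of Grm7 in stress KO vs. WT, -0.88 to -0.05, was the one that left out 0, and the intervals of Grm2 crossed both dotted lines in every panel.

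The receptor genes differed in how much mice of the same group varied. After the 0.75 of Grm2, the SD within groups was 0.48 for Grm8, 0.34 for Grm4, 0.33 for Grm7, 0.26 for Grm3 and 0.19 for Grm5, which exceeded 96.2%, 89.7%, 89.2%, 77.4% and 55.2% of all probe sets. Whether receptor genes rose and fell together from mouse to mouse was examined with group means subtracted, over 15 pairs of genes. Grm5 and Grm8, of different receptor groups, varied together (r = 0.83, permutation p = 4e-05, adjusted over the 15 pairs 0.0006; rho = 0.80, permutation p = 6e-05; n = 20 arrays). Leaving out the 2 arrays farthest from the median of Grm5 gave r = 0.79, and leaving out both arrays that stood apart gave r = 0.76. The next pair, Grm2 and Grm4, had r = 0.56 (permutation p = 0.0314, adjusted 0.236; rho = 0.44, permutation p = 0.0863), which fell to 0.30 without the 2 arrays farthest in Grm2. Grm3 and Grm7 had r = 0.52 (permutation p = 0.138, adjusted 0.494; rho = 0.46, permutation p = 0.108).

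The same deviations were compared with 11 cell type marker scores, which makes 66 relations. Grm2 followed the thalamic score (r = 0.78, permutation p = 0.00018, adjusted over the 66 relations 0.00627; rho = 0.58, permutation p = 0.0135), and Grm4 did so as well (r = 0.80, permutation p = 0.00019, adjusted 0.00627; rho = 0.72, permutation p = 0.00173). Without the 2 arrays of the most extreme thalamic score, WT con replicate 2 and KO con replicate 3, r was 0.76 for Grm2 and 0.77 for Grm4. All 9 thalamic markers correlated positively with both genes, from 0.27 (Zfhx3) to 0.87 (Ntng1, an axonal cell surface protein) for Grm2 and from 0.45 (Zfhx3) to 0.89 (Tcf7l2, a transcription factor of thalamic neurons) for Grm4. The 3 highest thalamic scores were 1.30 in WT con replicate 2, 0.99 in KO con replicate 3 and 0.91 in WT stress replicate 5. Those arrays had the highest Grm2 signals of their groups, 8.87, 8.74 and 9.44. WT stress replicate 4 departed from this, with a Grm2 signal of 8.80 at a thalamic score of -0.55. The thalamic score overlapped between all groups, from -0.55 to 1.30 in WT con, -0.78 to 0.91 in WT stress, -0.43 to 0.99 in KO con and -0.42 to 0.51 in KO stress. With this score as a covariate, the averaged stress difference of Grm4 was -0.10 (limma p of 0.304) in place of -0.17.

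Grm3 followed the score of striatal and central amygdala neurons (r = 0.81, permutation p = 0.00093, adjusted 0.0205; rho = 0.86, permutation p = 0.00027), with r = 0.65 without WT stress replicates 4 and 5, the arrays of the most extreme score. Of the 12 markers 11 correlated positively, led by Drd2, the dopamine D2 receptor, at 0.89, with Penk, the precursor of enkephalins, at 0.79. Prkcd, which marks a class of central amygdala neurons and is also expressed in thalamus, was the exception at -0.69. Striatal scores ran from -0.66 to 0.73 in WT con, -0.95 to 0.64 in WT stress, -0.51 to 0.66 in KO con and -0.59 to 0.39 in KO stress, and overlapped between all groups. Their means were -0.21, -0.04, 0.18 and 0.07 in the same order. In con mice 11 of 12 striatal markers were higher in KO (median 0.49, against 0.0 over all probe sets). In stress mice 7 of 12 were (median 0.12, against -0.03). In both comparisons 0 of 12 had a limma p under 0.05. The part of this score in the Grm3 differences was not tested. Grm7 had r = 0.69 with the same score (permutation p = 0.0124; rho = 0.66, permutation p = 0.0154), which fell to 0.42 without those 2 arrays, and r = -0.69 with the astrocyte score (permutation p = 0.0183; rho = -0.67, permutation p = 0.0044; -0.62 without the 2 extreme arrays), both with an adjusted permutation p of 0.202. All 11 astrocyte markers correlated negatively with Grm7, from -0.75 (Gfap) to -0.02 (Slc4a4). All 9 oligodendrocyte markers did so too, and Grm7 had r = -0.56 with their score (permutation p = 0.0253, adjusted 0.239). This r was -0.37 without the 2 arrays of the most extreme score, WT stress replicate 1 and KO stress replicate 3. Without both arrays that stood apart it was -0.36. Grm2 ran against the striatal score (r = -0.62, permutation p = 0.0175, adjusted 0.202), with r = -0.32 without WT stress replicates 4 and 5. Grm8 had r = -0.51 with it (permutation p = 0.0298, adjusted 0.246) and -0.81 without the same 2 arrays. No score had an adjusted p under 0.05 with Grm5 or Grm8. How far the dissected share of neighbouring regions contributes to these relations was not tested.

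**Figure D3:**
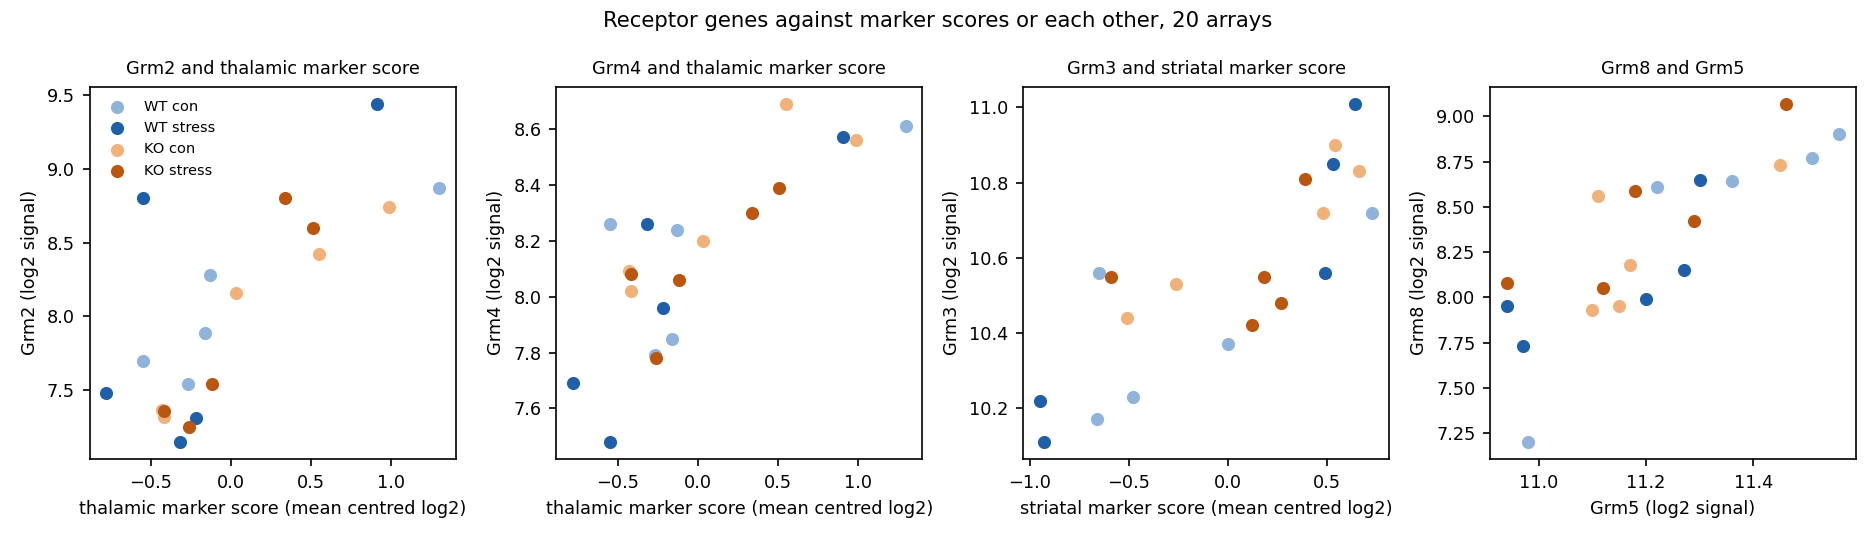
Log2 signals of Grm2 and Grm4 against the thalamic marker score, of Grm3 against the striatal and central amygdala marker score, and of Grm8 against Grm5, with 1 point per array coloured by group and group means not subtracted. Colours intermix along each trend, with WT stress replicate 4 high for its thalamic score in the first panel, at a Grm2 signal of 8.80 and a score of -0.55.

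**Figure D4:**
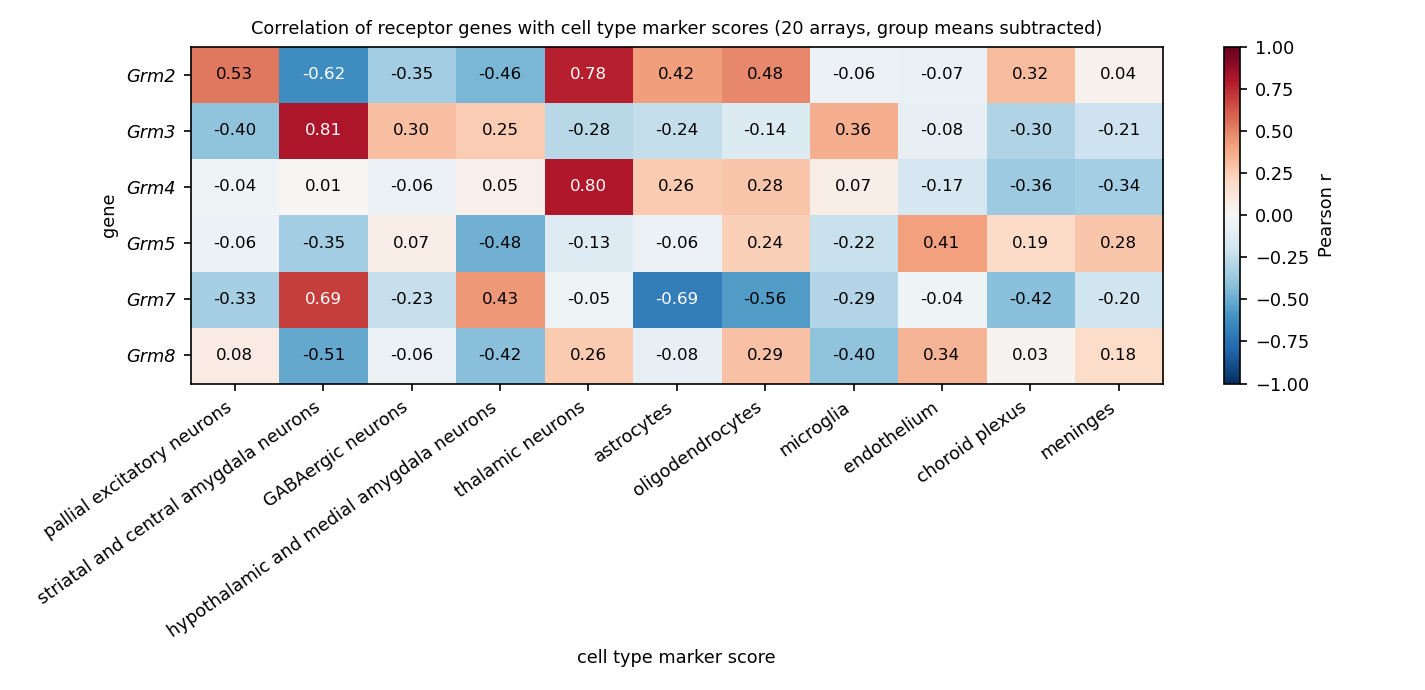
Pearson r over 20 arrays, with group means subtracted, between the 6 receptor genes (rows) and 11 cell type marker scores (columns), on a colour scale from -1 to 1. The largest values were 0.81 for Grm3 with the striatal score and 0.78 and 0.80 for Grm2 and Grm4 with the thalamic score.

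The probe sets with a single symbol whose deviations were most like each receptor gene's are given as a description, since they are the best of many. For Grm2 they were Cpne9, a calcium-binding copine (r = 0.94), Ptpn3, a tyrosine phosphatase (0.93), and Lhx9, a LIM homeodomain factor (0.92). Grm3 was most like Cpne5, another copine (0.91), Crybg3 (0.90) and the dopamine receptor Drd2 (0.89). Grm4 was most like Necab1, a neuronal calcium-binding protein (0.91), Tcf7l2 (0.89) and Kitl, the ligand of the receptor Kit (0.86). Grm7 was most like Grik2, a kainate receptor subunit (0.94), Mrgpra1 (0.92) and Cntn5, a contactin (0.92), where the mean signal of Mrgpra1 was low, at 4.88. Grm5 and Grm8 shared Lrrfip1 as their nearest gene, with r = 0.85 and r = 0.93. Lama3, a laminin chain, and Focad followed for Grm5 (both 0.85), and Plekha7, a protein of cell junctions, and Sntg1, a syntrophin, for Grm8 (both 0.92).

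The machinery around the receptors was followed over 83 genes in 5 lists, namely 15 of the Gq and phospholipase C pathway, 25 of Gi/o and its effectors, 16 receptor scaffolds and partners, 11 of desensitization and 16 of glutamate loading, uptake and metabolism. None met the criterion in the 4 group comparisons or in either averaged effect. In the interaction 2 of 83 (2.41%) did, against 0.591% of all probe sets, and after adjustment limma called 0 in every comparison. At an unadjusted limma p under 0.05 the counts were 5 of 83 in WT stress vs. con (6.02%, against 3.54% of all probe sets), 1 in KO stress vs. con (1.2%, against 1.13%), 0 in con KO vs. WT (against 3.57%), 9 in stress KO vs. WT (10.8%, against 9.28%) and 4 in the interaction (4.82%, against 2.52%). In averaged stress it was 1 of 83 (1.2%, against 1.67%) and in averaged genotype 7 of 83 (8.43%, against 12.0%).

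The 9 genes in stress KO vs. WT were 7 of 25 in the Gi/o list, 1 of 15 in the Gq list and 1 of 16 in the glutamate list. Of all probe sets 9.28% had such a p. The lists were written with earlier results of these data known, so this division is a description only. The named Gi/o genes were Adcy9, an adenylyl cyclase, at -0.30 (SE 0.10, limma p = 0.00693, exact permutation p = 0.00794), Cacna1a, the pore of the P/Q-type calcium channel, at -0.26 (SE 0.09, limma p = 0.00712, exact permutation p = 0.0159), and Gng4, a G protein gamma subunit, at 0.56 (SE 0.21, limma p = 0.0167, exact permutation p = 0.0238). In WT stress vs. con the same genes had the opposite sign, with Adcy9 at 0.32 (exact permutation p = 0.0397), Cacna1a at 0.19 (exact permutation p = 0.0714) and Gng4 at -0.49 (exact permutation p = 0.0476); both comparisons share the WT stress arrays. Their interactions were -0.38 for Adcy9 (permutation p = 0.00576), -0.28 for Cacna1a (permutation p = 0.0269) and 0.65 for Gng4 (SE 0.30, limma p = 0.0436, permutation p = 0.0435), the last of which met the criterion. The Gq list gave Plcb3 at 0.25 (SE 0.10, limma p = 0.0166, exact permutation p = 0.0476) in stress KO vs. WT and Plcb2 at 0.17 (SE 0.08, limma p = 0.0469, exact permutation p = 0.0397) in KO stress vs. con, both phospholipases C.

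Among regulators of signalling, Rgs14 met the criterion in the interaction at -0.71 (SE 0.32, limma p = 0.0415, permutation p = 0.0417), made up of 0.40 for stress vs. con in WT (exact permutation p = 0.111) and -0.31 in KO mice (exact permutation p = 0.286). Rgs8 had an interaction of -0.62 (SE 0.32, permutation p = 0.0688), and both proteins speed the shutdown of G proteins of the Gi/o class. Of the scaffold list, Homer3 was at -0.32 (exact permutation p = 0.183) in stress KO vs. WT, and Grasp, which encodes the receptor partner tamalin, at 0.53 (exact permutation p = 0.0873) in WT stress vs. con. Of the genes that clear or supply glutamate, the astrocytic transporter Slc1a3 was at -0.38 (SE 0.14, exact permutation p = 0.0794) in WT stress vs. con and 0.39 (exact permutation p = 0.0317) in stress KO vs. WT, and Slc7a11, the cystine and glutamate exchanger, at 0.47 (exact permutation p = 0.103) in KO stress vs. con. Pallial excitatory markers moved alongside in WT stress vs. con, 12 of 12 higher with 3 past the criterion (0.24% of all probe sets met it). So did GABAergic markers, 9 of 12 lower. Of the 12, 3 had a limma p under 0.05 in either direction (3.54% of all probe sets). In KO stress vs. con 0.139% of all probe sets met the criterion. There choroid plexus markers were 13 of 13 higher with 8 past it, and meningeal markers 11 of 11 higher with 4 past it. The part of these marker classes in the values of the single signalling genes named here was not tested.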

How the data were processed

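RNA of 20 amygdala samples was hybridized by the authors to Affymetrix Mouse Gene 1.0 ST arrays, 1 mouse per array, summarized and normalized with ExonRMA in ArrayAssist, variance stabilized and put on a log scale. The deposited values are taken as log2 signals from their range of 4.09 to 14.24; the base and the software version are not given in the sources used here, and the number of arrays limits the precision. Groups came from the sample labels. Probe sets were named from the platform annotation (21776 with 1 symbol, 1618 with several, 5373 with none) and updated by gene ID to RefSeq, which also gave loci and promoter windows.

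limma 3.58.1 in R 4.3.3 was fitted to the 4 group means over 28767 probe sets and 20 arrays (16 residual degrees of freedom), and tested on simulated data. Group comparisons of single genes had an exact two-sided permutation test (smallest possible p 0.00794), correlations and interactions 100000 permutations, correlations within groups; with scipy 1.17.1 and pandas 2.3.3. The genes, gene lists and tests were chosen with earlier results of these data known. Named were all 6 receptor genes, Slc6a4, of each signalling list the genes past the criterion and the 2 with the smallest p, of each cell type list described up to 3 genes by the comparison described (other markers were named after their values were seen), and the 3 nearest probe sets of each receptor gene. Alternatives were the methods' t-test, limma on 2 groups, other normalizations, a filter on level, trend and robust settings, array weights, replicate blocks, cell type scores as covariates and each array left out; the astrocyte and thalamic covariates were added after seeing the data. Same-numbered arrays of WT con and WT stress deviated together (r from 0.162 to 0.42, 5 of 5 over 0.1). In every other pair of groups some pair was at or below 0.1, so by this rule the numbers were taken to pair WT arrays only. The labels do not say what the numbers stand for, and differently numbered arrays were not compared. The main fit and the permutation tests of group comparisons used no pairing. No 2 arrays held identical values.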

Additional observations from a re-analysis of the deposited data

Results flagged for a closer look

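Among the 24 sets of 5 arrays (6 receptor genes in 4 groups), 2 held an array far from the others by Dixon's test at the 95% level, where chance alone gives about 1 in 20. Grm8 in WT con replicate 1 was 7.20, with a gap to the next array of 0.825 of the range, and Grm5 in KO con replicate 4 was 11.45, with a gap of 0.808 of the range (critical value 0.71). WT con replicate 1 also had a low median correlation over all probe sets, 0.978, though close to the 0.98 of WT stress replicate 4. The values of Grm8 without it stand above.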

How the results depend on the processing

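For the 6 receptor genes in 7 comparisons, 42 results were recomputed under 35 alternatives, which gave 1158 values. Of these 1050 kept their sign and side of the criterion, 12 newly met it (all of Grm7 or Grm8) and 96 changed sign, all among differences that did not meet it. The cause of these changes was not tested.

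Sign changes by setting were as follows. Quantile normalization gave 0.00 for Grm3 in stress KO vs. WT and in averaged stress, 0.01 for the Grm4 interaction and 0.00 for Grm5 in averaged genotype. Centring array medians, which moved the overall median by at most 0.039, gave -0.04 for Grm5 in KO stress vs. con, and -0.03 and -0.01 for Grm3 and Grm7 in averaged stress. Array weights gave -0.03 for Grm5 in KO stress vs. con, -0.05 for Grm3 in stress KO vs. WT and -0.01 for Grm7 in averaged stress. The striatal covariate gave Grm2 0.11 in WT stress vs. con, 0.25 in con KO vs. WT and 0.11 in averaged genotype, Grm3 -0.03 in stress KO vs. WT and 0.00 in averaged stress, Grm5 -0.01 in KO stress vs. con, and in con KO vs. WT Grm7 -0.04 and Grm8 0.00. The choroid plexus covariate gave -0.05 for Grm5 in KO stress vs. con, 0.06 for Grm2 in con KO vs. WT and 0.10 for the Grm4 interaction. The pallial covariate gave 0.22 for Grm2 and -0.08 for Grm3 in stress KO vs. WT and 0.47 for the Grm2 interaction. The astrocyte covariate gave 0.08 for Grm2 in WT stress vs. con. The thalamic covariate gave Grm2 0.20 in WT stress vs. con, 0.03 in KO stress vs. con and 0.12 in averaged stress, Grm5 0.00 in KO stress vs. con and Grm3 -0.01 in averaged stress. Without both arrays that stood apart, Grm2 was 0.03 in WT stress vs. con and Grm7 -0.05 in averaged stress.

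With each array left out in turn, Grm2 ranged from -0.37 to 0.20 in WT stress vs. con, -0.32 to 0.09 in KO stress vs. con, -0.24 to 0.15 in con KO vs. WT, -0.35 to 0.22 in stress KO vs. WT, -0.30 to 0.28 in the interaction, and -0.23 to 0.05 and -0.20 to 0.09 in averaged stress and genotype. Grm3 ranged from -0.10 to 0.13 in stress KO vs. WT and -0.05 to 0.06 in averaged stress, the Grm4 interaction from -0.16 to 0.11, Grm5 from -0.06 to 0.07 in KO stress vs. con and 0.00 to 0.13 in stress KO vs. WT, Grm7 from -0.05 to 0.12 in averaged stress and Grm8 from -0.06 to 0.17 in averaged genotype. Grm7 kept its sign in stress KO vs. WT (-0.64 to -0.31) and in the interaction (-0.75 to -0.42), where it met the criterion without replicate 2 of WT con, 4 of KO con, or 4 or 5 of WT stress, and with the pallial covariate (-0.72), while the choroid plexus (-0.42) and astrocyte (-0.43) covariates brought it nearer to 0. Grm8 kept its sign in WT stress vs. con (-0.64 to -0.21) and in the interaction (0.35 to 0.81).

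The count of receptor genes past the criterion ranged from 0 to 1 in WT stress vs. con, stress KO vs. WT and the interaction with arrays left out, and was 1 with array weights and without both arrays apart in WT stress vs. con and the interaction, and 1 in the interaction with the pallial covariate. Of the 83 signalling genes, with arrays left out, 0 to 7 met it in WT stress vs. con (7 without WT con replicate 1), 0 to 1 in KO stress vs. con, 0 to 3 in con KO vs. WT, 0 to 4 in stress KO vs. WT, 0 to 7 in the interaction and 0 to 1 in averaged genotype. Array weights gave 4 and 2 in WT stress vs. con and con KO vs. WT. Without both arrays apart the counts were 3 in each of these and 6 in the interaction. In stress KO vs. WT the striatal covariate gave 4 and the choroid plexus and astrocyte covariates 2 each; in the interaction quantile normalization and the pallial covariate gave 1 each, and the striatal and astrocyte covariates 0.

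The replicate block in all groups left every receptor gene on its side of the criterion (Grm7 in stress KO vs. WT -0.46, limma p of 0.0152, where the methods' t-test gave 0.105 and limma on the 2 groups alone 0.0728) and gave 1 signalling gene in WT stress vs. con and 4 in the interaction. The block in the WT groups, whose numbers were taken as pairs, changed no receptor gene's call either.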
